A study of Mus musculus with 64 samples.

Results

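The albumin gene family and the oncofetal genes tied to it were examined as 7 genes of the 23338 listed in the count files: Alb, Afp, Afm and Gc, which encode the albumin-type plasma proteins, Zhx2 and Zbtb20, which encode transcription factors, and Gpc3, which encodes a cell surface proteoglycan. They were chosen by name, and all 7 were found. RNA-seq read counts were available for 64 libraries from mice of the C57BL/6 J strain, in which male and female gene expression was compared through development. The groups were single eight-cell embryos (6 male and 6 female), embryonic stem (ES) cell lines grown in 2i medium (2 male and 2 female), fetal livers of late gestation (12 male and 12 female) and livers of adult mice aged 15 to 20 weeks (12 male and 12 female). The labels name no transgene, mutation or treatment in any group other than the 2i medium. The sex of the embryos was assigned by the authors from sex-linked transcripts, and embryo libraries came from an amplification protocol that no other stage used. The livers were whole tissue, so fewer cells of a type and less RNA per cell cannot be told apart in any liver value below.

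Albumin is the main protein of blood plasma and is made by hepatocytes. Alpha-fetoprotein, the product of Afp, takes a similar place in fetal plasma, is silenced in the liver after birth and returns in many liver cancers, hence the term oncofetal. Afm encodes afamin, which binds vitamin E, and Gc encodes the vitamin D binding protein. Alb, Afp and Afm lie side by side in one cluster, and Gc lies farther off on the same chromosome. Zhx2 and Zbtb20 are known as repressors of Afp in postnatal liver, and Zhx2 also represses Gpc3 and H19. Glypican-3, the product of Gpc3, modulates growth factor and Hedgehog signalling and is a second oncofetal marker of the liver.

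On GRCm38, which is the same build as the mm10 used by the authors, RefSeq placed Alb at chr5:90460870-90476602, Afp at chr5:90490714-90508907 and Afm at chr5:90518949-90553544, all on the plus strand. The gap between Alb and Afp was 14.1 kb, and Afm followed beyond Afp. Gc lay at chr5:89417511-89457898 on the minus strand, 1003 kb before Alb. Zhx2 was at chr15:57694667-57839832, Zbtb20 at chr16:42875689-43634392 and Gpc3 at chrX:52272426-52613974, on the minus strand. Alb, Afp and Afm each had 15 exons in their RefSeq transcript and nearly equal exon lengths of 2034, 2063 and 2038 bases. Antisense genes overlap Afp, Zhx2, Zbtb20 and Gpc3 in the GENCODE annotation, those of Zbtb20 and Gpc3 also being listed in the count files. A further gene on the opposite strand, Gm42109, overlaps the end of Afm. The strand setting of the read counting was not given in the sources used here. Reads from such partners therefore cannot be told apart from reads of these genes.

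Promoters are shown because the albumin-type genes are classical targets of the hepatocyte factor HNF1. The RefSeq table (GRCm38.p6) held promoters of 6 of the 7 genes, each running from 250 bases before to 50 bases after the start site. The motif GTTAAT, part of the sequence bound by HNF1, was searched on both strands and is in capitals (in the Afm promoter the second match is on the opposite strand and reads ATTAAC). The windows are chr5:90460620-90460919 (plus strand) for Alb, chr5:90490464-90490763 (plus) for Afp, chr5:90518699-90518998 (plus) for Afm, chr5:89457849-89458148 (minus) for Gc and chrX:52613925-52614224 (minus) for Gpc3, written 5′ to 3′ on the strand of the gene.
Alb: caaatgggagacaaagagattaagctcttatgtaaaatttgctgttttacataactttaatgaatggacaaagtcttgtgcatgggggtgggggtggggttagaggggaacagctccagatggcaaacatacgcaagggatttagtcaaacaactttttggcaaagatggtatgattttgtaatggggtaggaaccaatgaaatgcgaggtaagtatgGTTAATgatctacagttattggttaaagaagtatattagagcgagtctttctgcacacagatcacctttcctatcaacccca
Afp: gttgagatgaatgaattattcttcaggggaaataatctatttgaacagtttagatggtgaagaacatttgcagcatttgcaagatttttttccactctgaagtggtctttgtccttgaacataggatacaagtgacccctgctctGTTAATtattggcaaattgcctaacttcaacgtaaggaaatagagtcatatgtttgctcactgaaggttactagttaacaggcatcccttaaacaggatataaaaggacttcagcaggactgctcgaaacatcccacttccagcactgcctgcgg
Afm: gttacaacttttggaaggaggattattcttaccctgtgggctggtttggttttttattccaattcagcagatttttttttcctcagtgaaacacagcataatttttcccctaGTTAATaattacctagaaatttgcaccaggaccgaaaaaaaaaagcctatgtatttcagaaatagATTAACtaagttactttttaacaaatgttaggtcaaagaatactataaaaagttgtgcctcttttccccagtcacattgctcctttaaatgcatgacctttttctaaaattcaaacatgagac
Gc: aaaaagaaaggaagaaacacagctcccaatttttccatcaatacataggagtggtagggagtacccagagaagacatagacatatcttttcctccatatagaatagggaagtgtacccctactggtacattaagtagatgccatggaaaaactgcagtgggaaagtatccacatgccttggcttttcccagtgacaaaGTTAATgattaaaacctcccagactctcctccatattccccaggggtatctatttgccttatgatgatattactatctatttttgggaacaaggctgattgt
Gpc3: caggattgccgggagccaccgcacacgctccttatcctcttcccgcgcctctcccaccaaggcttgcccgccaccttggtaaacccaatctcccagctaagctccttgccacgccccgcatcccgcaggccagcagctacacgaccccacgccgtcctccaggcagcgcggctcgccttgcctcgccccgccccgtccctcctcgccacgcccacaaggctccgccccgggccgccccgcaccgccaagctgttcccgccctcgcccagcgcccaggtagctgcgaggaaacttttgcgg

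All 4 albumin-type promoters held the GTTAAT motif, at 32 bases before the annotated start in Alb, 105 in Afp, 52 in Gc and 138 and 73 in Afm. It was present in 7.10% of the 32851 promoters searched and in neither the Gpc3 nor the Zbtb20 window. The Zbtb20 window, chr16:43247034-43247333 (plus strand), lay inside the gene as placed above, not at its first base. Zbtb20 had 53 RefSeq transcripts, and this window stands for 1 annotated start only. The motif TATAAA was found 7 bases before the annotated start of Afp and 30 bases before that of Afm, against 13.6% of all promoters. CCAAT was found in all 6 windows and in 37.4% of all promoters. No 2 of the matches overlapped. The Gpc3 window was 70.7% G or C, compared with 33.0% for Afm, 40.3% for Gc, values between those for Alb and Afp, and a median of 52.7% over all promoters. A match describes the letters of the window only.

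Levels are given as CPM, the counts of a gene relative to all reads on genes, scaled with TMM factors over all 64 libraries. Total reads on genes ranged from 9857929 to 10386931 in ES cells, 4659656 to 7725432 in embryos, 5145371 to 8499603 in fetal and 1567583 to 4757610 in adult livers, so that 3 reads corresponded to 0.631 to 1.91 CPM, before TMM scaling, in an adult liver. The tissue labels held: 8 of 8 hepatocyte markers were detected in both liver stages, with summed levels of 27139 to 37715 CPM in fetal and 43815 to 66438 CPM in adult livers. The pluripotency markers summed to 1839 to 2080 CPM in ES cells. Blood cell markers went the other way between the liver stages. The 10 erythroid markers summed to 5209 to 7786 CPM in fetal and 113 to 457 CPM in adult livers, led by Slc4a1, Beta-s and Alas2, while the globin entries Hbb-b1, Hbb-b2 and Hba-a1 had at most 1 read in any liver, and the 6 neutrophil markers to 1415 to 2960 CPM in fetal and 0 to 8.60 CPM in adult livers. The 4 endothelial markers summed to 383 to 591 CPM in fetal and 392 to 558 CPM in adult livers. The part of cell makeup in the changes between the stages was not tested. One fetal liver, female 14, stood apart: Apoa4 and Fabp2, lipid carrier genes known from the small intestine and named here after their values were seen, were at 1762 and 471 CPM in it and at no more than 3.54 and 4.93 CPM in the other 23. Without this liver the same numbers of the 7 genes were called in each comparison with fetal liver (7 against adult liver, 1 between the fetal sexes, 2 in the interaction and 7 against ES cells), and Alb rose by 0.98.

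From fetal to adult liver, 5 of the 7 genes rose and 2 fell. Alb, Afm, Gc, Zhx2 and Zbtb20 were higher in adult liver by between 1.99 and 6.39 times, whereas Afp and Gpc3 fell from abundant transcripts to a few reads per library. Calls in the edgeR quasi-likelihood test needed a log2 change beyond 0.5 in size, together with a p-value below 0.1 after Benjamini-Hochberg adjustment. Of all 13026 genes tested, 31.7% were called higher and 35.4% lower in adult liver, so that a call in itself was common in this comparison. For each of the 7 genes the 24 adult and the 24 fetal livers did not overlap in CPM with TMM. That held for 16.4% of all genes in the upward and 24.4% in the downward direction. For Alb it needed the TMM scaling. Its share of all reads on genes overlapped, at 1.53% to 2.08% in fetal and 1.70% to 3.15% in adult livers.

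**Figure D1:**
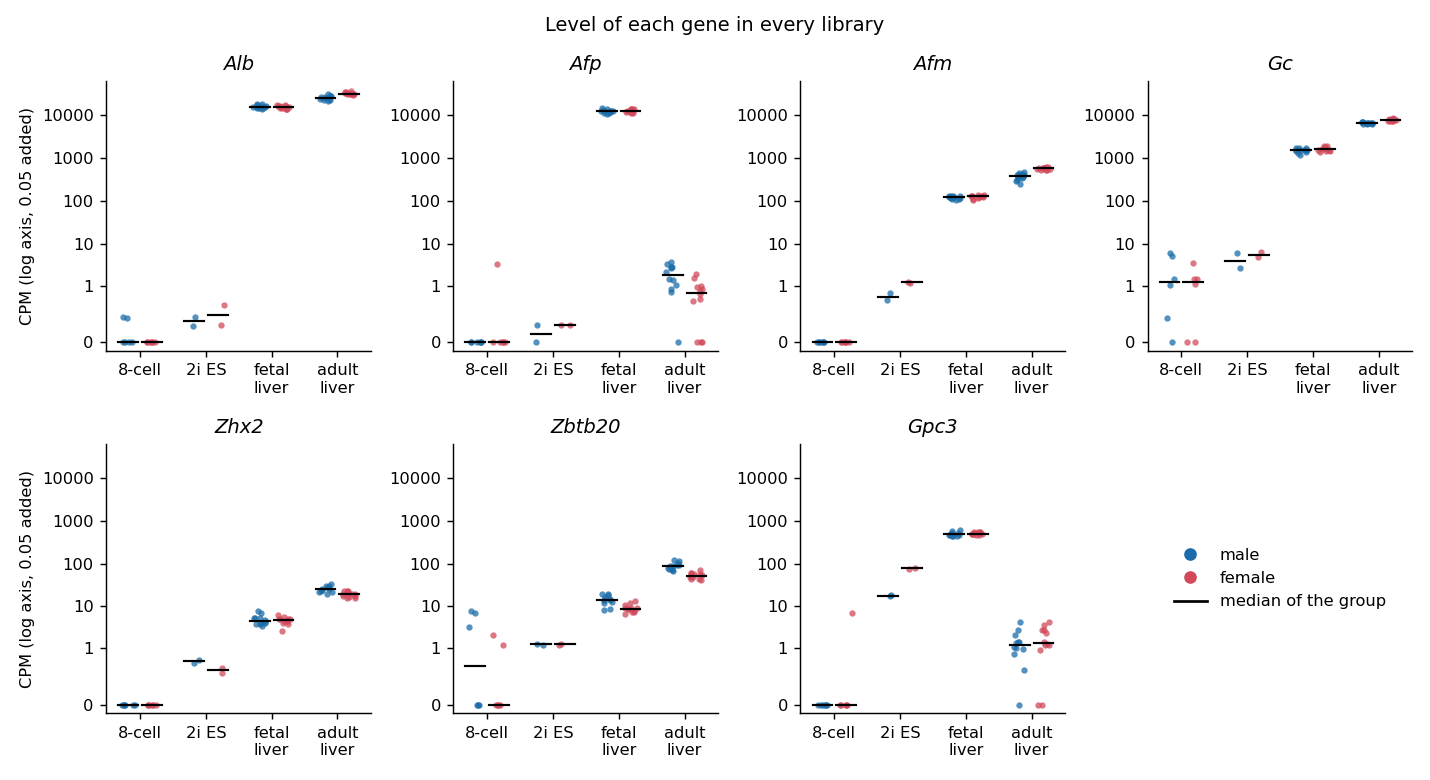
CPM of each of the 7 genes in every library (log axis with 0.05 added; 1 point per library, males blue and females red, bars at the group medians). Alb, Afp and Gc are at or above 1206 CPM in all fetal livers, and in adult livers Afp and Gpc3 sit near 1 CPM.

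Alb was the most abundant gene of the adult liver in 24 of 24 libraries and of the fetal liver in 20 of 24, Trf being first in the others. Its level was 13794 CPM at the lowest, 15680 at the median and 18778 at the highest among the fetal livers, and 21043, 30574 and 36487 CPM among the adult livers. The rise was 0.99 on the log2 scale (SE 0.04, adjusted p = 1.57e-28). Alb took 1.53% to 2.08% of all reads on genes in fetal and 1.70% to 3.15% in adult livers. With library totals in place of TMM the rise in Alb was 0.42 and below the size threshold, although its adjusted p was 8.58e-15. The same change of scaling moved the median log2 change over all genes tested from -0.05 to -0.61, so that both values of Alb lay above the median of all genes.

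Afp, silenced in liver after birth, was the third most abundant gene of the fetal liver, at 10788 CPM at the lowest, 12499 at the median and 15134 at the highest. Between 74631 and 114959 reads per fetal library fell on Afp. Adult livers held 0 to 10 Afp reads each, 73 in all, and 4 of the 24 had none. All fetal values lay far above all adult values. The pooled level was 9177 times higher in fetal than in adult liver (95% counting interval 7299 to 11708). The fitted log2 change was -13.30 (SE 0.11, adjusted p = 5.50e-63), a value that depends on the prior count because 17 of the adult libraries were at or below 3 reads. Afp did not pass the filter on low counts among adult livers alone. It entered this comparison through its fetal reads, so that a call in this direction was nearly fixed for it. Set against Alb in the same library, Afp gave 80.1 reads per 100 Alb reads at the median of the fetal livers (69.8 to 88.8) and 0.00333 at the median of the adult livers (0 to 0.0154).

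Afm, the third gene of the cluster, stood at 103 CPM at the lowest, 125 at the median and 138 at the highest in fetal livers. The adult values were 247, 489 and 634 CPM. Its log2 change was 2.01 (SE 0.04, adjusted p = 1.91e-44), a 4.04-fold rise. Gc, the vitamin D binding protein gene, was at 1206, 1558 and 1955 CPM (lowest, median and highest) in fetal and 6253, 7178 and 8644 CPM in adult livers. It rose by 2.30 (SE 0.04, adjusted p = 3.79e-49). Both genes rose more than Alb did. The ratio of Afm to Alb reads was 0.790% at the fetal and 1.63% at the adult median, a difference of 1.02 on the log2 scale, and that of Gc to Alb reads was 9.88% and 24.9%, a difference of 1.31. In permutation tests over the 48 livers (two-sided, 100000 resamples, adjusted over 4 ratios) the ratios of Afp, Afm and Gc to Alb all differed between stages at an adjusted p of 1.33e-05, given by the smallest raw p these permutations allow, and none of the 3 ratios overlapped between stages.

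The 2 Afp repressors were present at far lower levels. Zhx2 had 20 to 60 reads per fetal and 25 to 111 reads per adult library. Its fetal level was 2.61 CPM at the lowest, 4.72 at the median and 7.59 at the highest, and its adult level 15.5, 22.2 and 33.0 CPM. The log2 change of Zhx2 was 2.31 (SE 0.08, adjusted p = 1.56e-33). Zbtb20 was at 6.60, 11.5 and 19.2 CPM in fetal and 40.5, 68.3 and 123 CPM in adult livers. It rose by 2.68 (SE 0.09, adjusted p = 5.55e-33), or 6.39-fold. With TMM both repressor transcripts were thus 5 to 6 times higher in adult liver, where Afp was near 0. With library totals the log2 rises were smaller, at 1.75 for Zhx2 and 2.11 for Zbtb20, both still called. The part of either gene in the Afp change was not tested. Zhx2 fell relative to Zbtb20: the median was 41.5 Zhx2 reads per 100 Zbtb20 reads in fetal and 32.0 in adult livers, with overlapping ranges, and the log2 ratio differed by -0.36 (permutation test, adjusted p = 0.0024).

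Gpc3 was at 429 CPM at the lowest, 495 at the median and 599 at the highest in fetal livers. In adult livers it had 0 to 16 reads, 89 in all, with 3 libraries at 0. The pooled fetal level was 299 times the adult one (95% counting interval 243 to 373), with a fitted log2 change of -8.10 (SE 0.11, adjusted p = 3.25e-52). Like Afp, Gpc3 passed the filter only through its fetal reads, so that its call in this direction was nearly fixed. Intervals of pooled ratios cover counting error only.

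**Figure D2:**
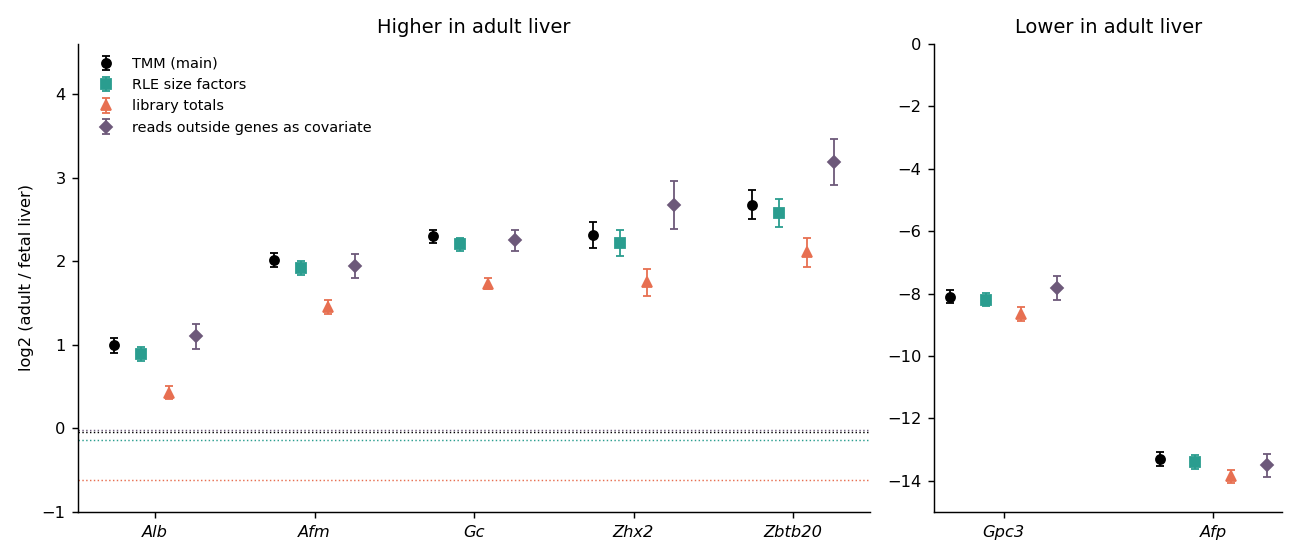
log2 change from fetal to adult liver of the 7 genes under 4 settings (bars are 95% intervals; dotted lines give the median over all genes tested in each setting). Alb moves from 0.99 with TMM to 0.42 with library totals, as the median of all genes moves from -0.05 to -0.61.

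Levels of different genes were compared per kilobase of RefSeq exon. In fetal liver the order was Alb (7765 ± 691 CPM per kb, mean ± SD, n = 24), Afp (6124, from 5229 to 7336 across livers), Gc (879 ± 98.0), Gpc3 (225 ± 19.6), Afm (60.1 ± 4.89), Zhx2 (1.09 ± 0.250) and Zbtb20 (0.435 ± 0.146). The ranges of Alb and Afp overlapped across livers, but Alb was above Afp in 24 of 24 libraries. In adult liver the order was Alb (14364 ± 2126), Gc (4009 ± 403), Afm (230 ± 56.3), Zhx2 (5.13 ± 1.08), Zbtb20 (2.63 ± 0.867), Gpc3 (0.737 ± 0.565) and Afp (0.632 ± 0.534). Gpc3 and Afp were not ordered beyond their spread there, Gpc3 being the higher in 14 of 24 livers. The place of Zbtb20 rests on a long exon length of 27037 bases over its many RefSeq transcripts. With GENCODE basic transcripts the adult mean was 154 for Afm and 2.62 for Zbtb20.

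The ES cells were used as a stage without liver identity. The 6 genes other than Gpc3 were at or below 6.31 CPM in each of the 4 ES lines. Reads on Alb numbered 1 and 2 in the male and 1 and 4 in the female lines, and those on Afp 0 and 1 in the male and 1 and 1 in the female lines. Afm had 6 to 16 reads, Zhx2 3 to 7 and Zbtb20 16 to 18. Gc was at 2.67 and 5.89 CPM in the male and 6.31 and 4.71 CPM in the female lines. All 7 genes were called higher in fetal liver, a call made for 41.2% of the 14858 genes tested in that direction and for 35.3% in the opposite one. Alb, Afp and Zhx2 did not pass the filter among the ES lines alone. They entered this comparison through their fetal reads, so that a call in this direction was nearly fixed for them. The pooled fetal to ES ratio was 104640 for Alb (95% counting interval 53106 to 242370) and 223140 for Afp (76353 to 1082000), both resting on fewer than 10 ES reads. It was 142 for Afm (107 to 195), 326 for Gc (288 to 369), 12.8 for Zhx2 (8.26 to 21.1), 9.44 for Zbtb20 (7.40 to 12.2) and 10.6 for Gpc3 (10.2 to 11.1). By level, Gpc3 was ordered fetal liver, ES cells, adult liver with no overlap between neighbours. Zhx2, Zbtb20, Afm, Gc and Alb were ordered adult liver, fetal liver, ES cells, also without overlap. For Alb the 2 liver stages overlapped with library totals. For Afp the adult livers and ES cells overlapped.

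Of the 4 genes tested between male and female ES lines, only Gpc3 was called. Alb, Afp and Zhx2 did not pass the filter, so their difference between the sexes was not tested there. Afm, Gc and Zbtb20 were tested and not called. For Afm both female lines (1.15 and 1.26 CPM) were above both male lines (0.433 and 0.655 CPM). Its log2 male to female value was -1.13 (SE 0.45, edgeR test, adjusted p = 0.201). For Gpc3 the male lines held 18.3 and 17.46 CPM and the female lines 79.7 and 76.6 CPM. Both female lines were thus above both male lines, and the log2 male to female value was -2.12 (SE 0.10, adjusted p = 0.0104), against 9.5% of 12678 genes called in either direction. Gpc3 is X-linked, and of the 425 X-linked genes tested in ES cells 280 were called lower and 1 higher in males, with a median of -0.89. The Gpc3 value was lower than that median, and 27 X-linked genes, Gpc3 included, were at or below it. With either female line left out the Gpc3 call was lost, together with every other call of the comparison. With either male line left out it stayed. The Gpc3 log2 value lay between -2.16 and -2.09 in each of these fits. When 1 line of a sex was left out, the lone line was assumed to vary like the others. In fetal liver the Gpc3 value between the sexes was -0.01 (95% interval -0.11 to 0.09).

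Eight-cell embryos gave few reads on these genes, and none of the 7 passed the filter on low counts in the comparison of male with female embryos. Afm and Zhx2 had 0 reads in all 12 embryos, which allows up to the level of 3 reads, 0.388 to 0.644 CPM per embryo. Alb had 1 read in 2 male embryos and none in the other 10. Afp was seen in a single embryo, female 12, with 21 reads or 3.38 CPM. Gpc3 was likewise seen only in female embryo 8, with 44 reads or 6.87 CPM. Gc had reads in 9 embryos, up to 37, and Zbtb20 in 5 embryos, up to 59. The amplified protocol is confounded with the stage, so embryo levels were not tested against the other stages.

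Among the fetal livers, 6 of the 7 genes did not pass the test between the sexes, and Zbtb20 was called higher in males, in a comparison that called 4.64% of 12930 genes. The Zbtb20 level was 8.00, 14.1 and 19.2 CPM (lowest, median and highest) in males and 6.60, 8.84 and 13.1 CPM in females. The ranges overlapped, and the log2 male to female value was 0.69 (SE 0.13, adjusted p = 1.85e-04). The share of counted reads that lay outside genes also differed by sex in these livers, at 39.9% to 49.0% in males and 34.1% to 38.1% in females, with no overlap. With this share as a covariate the Zbtb20 value was 0.13 (adjusted p = 0.995) and the genes called in the whole comparison went from 600 to 9, so that sex and the share outside genes cannot be told apart for this gene. After centring by sex, Zbtb20 (CPM of library totals) correlated with that share at r = 0.50 over 24 fetal livers (rho = 0.36, permutation p = 0.0245 and 0.0986, adjusted 0.0534 and 0.184 over 24 relations, r = 0.36 without the 2 farthest livers). The 95% intervals of the log2 male to female value were -0.04 to 0.19 for Alb, -0.11 to 0.12 for Afp, -0.12 to 0.06 for Afm, -0.18 to 0.05 for Gc and -0.14 to 0.37 for Zhx2.

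In adult livers, of the 5 genes that passed the filter, Afm was called lower and Zbtb20 higher in males, against 9.49% of 10372 genes called. Afm was at 247, 381 and 465 CPM (lowest, median and highest) in males and 514, 578 and 634 CPM in females. Every female was above every male, which held, in either direction, for 2.46% of genes, and the log2 value was -0.65 (SE 0.07, adjusted p = 2.00e-09). Gc was also without overlap, at 6253 to 7095 CPM in males and 7261 to 8644 CPM in females. Its log2 value of -0.27 (SE 0.04, adjusted p = 1.03e-05) was below the size threshold. Alb was at 21043 to 31769 CPM in males and 30551 to 36487 CPM in females, with a log2 value of -0.37 (SE 0.06, adjusted p = 4.73e-05), again under the threshold in size. The summed hepatocyte markers were also lower in males, at 43815 to 49260 CPM against 50371 to 66438 CPM, while the erythroid markers were higher, at 304 to 457 CPM in males against 113 to 303 CPM in females. Endothelial markers were at 392 to 483 CPM in males and 465 to 558 CPM in females, and the medians were 725 and 886 CPM for stellate and 574 and 735 CPM for macrophage markers. Markers shared with the visceral endoderm, of which Apoa1 and Ttr are also hepatocyte markers and make up nearly all of the sum, had medians of 8615 CPM in males and 8210 CPM in females. Depth also differed, with 1608848 to 4757610 reads on genes in male and 1567583 to 3043818 in female adult libraries. With only adult livers of at least 2500000 reads the log2 male to female value of Alb was -0.39. The part of depth, or of any of these markers, in the differences between the sexes was not tested.

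The repressor transcripts went the other way in adult liver. Zbtb20 was at 66.9, 88.3 and 123 CPM in males and 40.5, 52.2 and 70.5 CPM in females (log2 0.75, SE 0.11, adjusted p = 7.19e-06). With the share of reads outside genes as a covariate it was 0.72 and still called. Within adult livers, centred by sex, that share correlated with Zbtb20 (r = 0.64, rho = 0.59, permutation p = 7.50e-04 and 0.0033, adjusted 0.006 and 0.0233 over 24 relations, r = 0.61 without the 2 farthest livers). It also did with Zhx2 (r = 0.55, rho = 0.47, permutation p = 0.00757 and 0.0278, adjusted 0.0306 and 0.0833, r = 0.52 without the 2 farthest) and with Alb (r = 0.60, rho = 0.59, permutation p = 2.70e-04 and 0.00132, adjusted 0.00324 and 0.0158, r = 0.52 without the 2 farthest). Zhx2 was at 19.9, 25.04 and 33.0 CPM in males and 15.5, 19.2 and 22.99 CPM in females. Its log2 value was 0.40 (SE 0.10, adjusted p = 0.00231), short of the size threshold. Afp and Gpc3 had too few adult reads for the filter. Afp had 57 reads over 12 males and 16 over 12 females, present in 11 males and 9 females, a ratio of 2.80 (95% counting interval 1.59 to 5.23). In a permutation test of log2(CPM + 0.5), chosen after these counts were seen, the male to female difference of Afp was 0.97 (p = 0.0101, adjusted 0.0202 over 2 genes) and that of Gpc3 -0.18 (p = 0.651). These values lay between 0 and 3.75 CPM for Afp, and most libraries were at or below 3 reads.

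The difference between the sexes was itself compared between the stages, a test that called 13.7% of genes. Afm was called (adult minus fetal difference -0.58, SE 0.08, adjusted p = 2.07e-07), as was Afp (1.46, SE 0.36, adjusted p = 0.00203). Afp and Gpc3 passed the filter here only through their fetal reads. The Afp value rests on 57 adult male and 16 adult female reads and is not on the same footing as that of Afm. The Alb difference changed by -0.39 (adjusted p = 4.78e-04), within the size threshold. For Zbtb20 the change was 0.10 (95% interval -0.25 to 0.45), for Zhx2 0.33 (0.02 to 0.64, adjusted p = 0.119), for Gc -0.16 (-0.30 to -0.01, adjusted p = 0.103) and for Gpc3 -0.23 (-0.93 to 0.47).

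**Figure D3:**
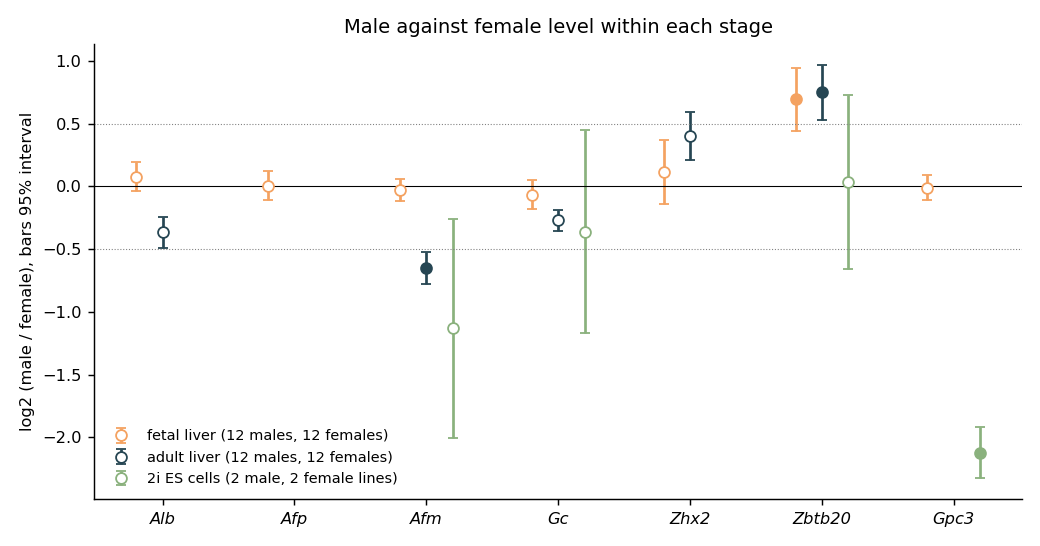
log2 male to female value of each gene within fetal liver, adult liver and 2i ES cells (bars are 95% intervals, filled points are called, dotted lines mark the size threshold of 0.5). Zbtb20 is called in both liver stages (in fetal liver not with reads outside genes as a covariate), Afm in adult liver and Gpc3 in ES cells, and genes that did not pass the filter have no point.

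Relations between the genes were computed across the 24 livers of each stage after centring by sex, 12 relations in all, read at an adjusted p of 0.05. Across fetal livers Alb and Afp varied together (r = 0.79, rho = 0.80, permutation p = 3.00e-05 and 4.00e-05, adjusted p = 3.60e-04 and 4.80e-04), with r = 0.90 within males and 0.64 within females and r = 0.68 without the 2 livers farthest from the median. Alb and Gc also did (r = 0.58, rho = 0.56, permutation p = 0.00439 and 0.00585, adjusted p = 0.0263 and 0.0351, r = 0.47 without the 2 farthest), but this did not pass with library totals (r = 0.45, adjusted p = 0.198), and without fetal female 14 r was nearly as large with an adjusted p just above 0.05 (r = 0.54, adjusted p = 0.0617). Alb and Afp gave r = 0.81 without that liver. No relation of the repressors with their target passed in either stage. In fetal livers Zhx2 and Afp gave r = -0.18 (rho = -0.32, permutation p = 0.414 and 0.143) and Zbtb20 and Afp r = -0.32 (rho = -0.34, permutation p = 0.156 and 0.111). In adult livers, where Afp stood at 0 to 10 reads, the values were r = 0.28 for Zhx2 (rho = 0.23, permutation p = 0.196 and 0.301) and r = 0.17 for Zbtb20 (rho = 0.14, permutation p = 0.436 and 0.535). Zhx2 and Gpc3 gave r = 0.36 in both stages (rho = 0.18 and 0.44). The permutation p was 0.104 and 0.0848 for r, and 0.416 and 0.0348 for rho (adjusted 0.554 and 0.139). Without the 2 farthest livers r was 0.0091 in fetal and 0.27 in adult livers.

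The shares of Alb and Afp moved with library depth. In fetal livers the Afp level, as CPM of library totals, fell with log2 reads on genes (r = -0.72, rho = -0.71, permutation p = 1.40e-04 and 2.30e-04, adjusted p = 0.00324 and 0.00552, r = -0.70 without the 2 farthest), with r = -0.84 within males and -0.48 within females. Afp also fell with the share of reads outside genes (r = -0.52, rho = -0.58, permutation p = 0.0162 and 0.00388, adjusted 0.0486 and 0.0233, r = -0.45 without the 2 farthest). The Alb level gave r = -0.55 in fetal livers (rho = -0.52, permutation p = 0.00994 and 0.0137, adjusted 0.0341 and 0.0657) and r = -0.58 in adult livers (rho = -0.51, permutation p = 0.00766 and 0.0177, adjusted 0.0306 and 0.0707), with r = -0.47 and -0.59 without the 2 farthest. In fetal livers the Alb relation was seen mainly within males (r = -0.74, against -0.15 within females), a contrast that was not tested, and in adult livers r was -0.50 within males and -0.81 within females. Zbtb20 rose with depth in fetal livers (r = 0.60, rho = 0.47, permutation p = 0.00356 and 0.027, adjusted 0.0214 and 0.0833, r = 0.49 without the 2 farthest), at 0.74 within males and 0.31 within females. The authors removed duplicate reads, and Alb held 47.6 to 71.1 reads per exon base in fetal and 17.05 to 50.4 in adult libraries, compared with 0.336 to 0.580 for Afm in fetal libraries. The part of duplicate removal in the Alb and Afp levels, and of depth in the relation between them, was not tested.

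**Figure D4:**
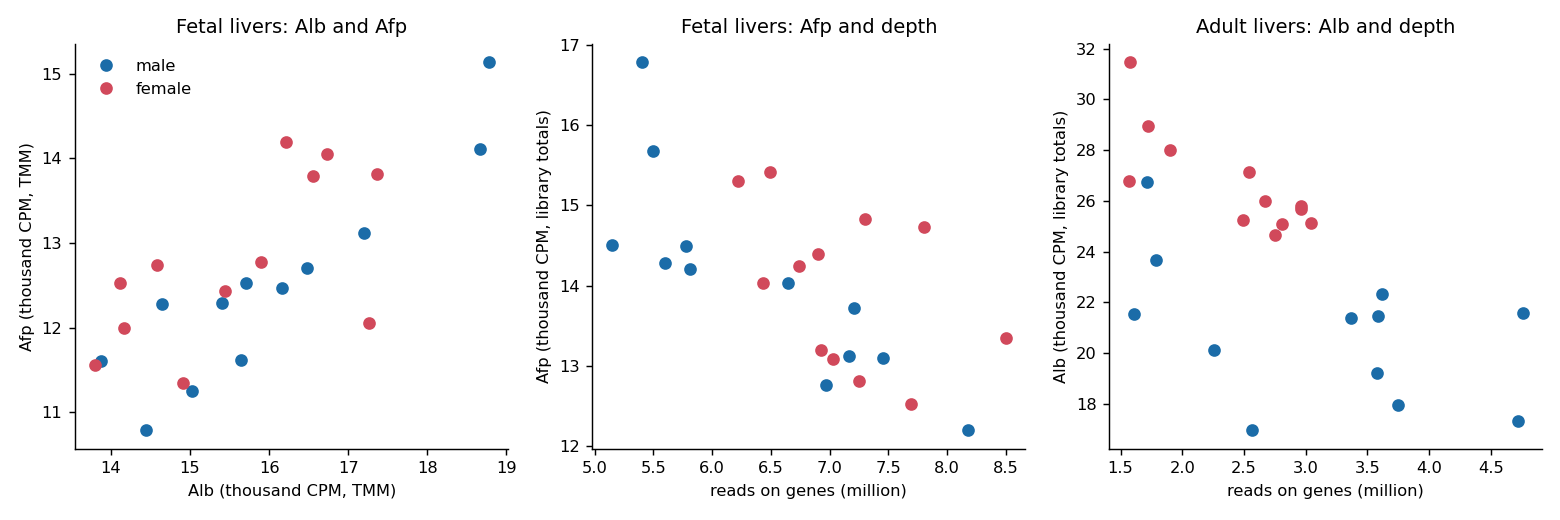
Left, Afp against Alb in the 24 fetal livers (CPM with TMM); middle, Afp against reads on genes in the fetal livers; right, Alb against reads on genes in the 24 adult livers (CPM of library totals; males blue, females red). Alb and Afp rise together in fetal livers (r = 0.79), and both shares fall with depth (r = -0.72 for Afp in fetal and -0.58 for Alb in adult livers, centred by sex).

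For each of the 7 genes, the 3 genes with the highest correlation over the 48 livers, after centring on the 4 groups of stage and sex, were listed among 10403 genes whose mean reached 10 CPM in either liver stage, as a description. Those of Alb were Ttr (r = 0.65), Sepp1 (0.63) and Apoa2 (0.57), which encode plasma carrier proteins. Those of Gc were Azgp1 (0.87), Ces1c (0.86) and Kng1 (0.86), also genes of secreted or hepatocyte proteins. Afm was followed by Arhgap15, Zfp229 and Svip (0.73 to 0.72), Zhx2 by Ncoa1, Stat2 and Mink1 (0.60 to 0.56) and Zbtb20 by Mga, Gpc4 and Il6st (0.73 to 0.71). For Afp (Slc16a6, Rcor3 and Bcmo1) and Gpc3 (Flrt2, D3Ertd254e and Sema5a) the likeness lay mostly in adult livers, where both genes had few reads. The points share library depth, which moves the levels as above.

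The neighbours of the cluster did not move as one. Of 7 listed neighbours in the files 6 were tested, of which 4 rose from fetal to adult liver and 1 fell. Over all genes tested 31.7% were called higher and 35.4% lower. The median log2 change of the neighbours was 0.93 against -0.05 for all genes. The albumin-related gene 5830473C10Rik, directly beyond Afm, rose by 2.42 (SE 0.09, adjusted p = 5.74e-30), from 16.9 ± 3.40 to 84.2 ± 20.6 CPM (SD, n = 24 each). Rassf6, the next gene, rose by 0.58 (SE 0.08), a call lost with library totals (0.0063). On the side of Gc, the bicarbonate transporter gene Slc4a4 rose by 3.13 (SE 0.10) and Adamts3, a procollagen protease gene, changed by -2.92 (SE 0.19), from 7.23 to 0.836 CPM. Between Adamts3 and Alb, Cox18 rose by 1.29 (SE 0.10) and Ankrd17 was at -0.46 and under the size threshold (-1.02 and called with library totals). Npffr2, between Gc and Adamts3, had at most 1 read in any liver. The 5 plasma protein genes of the region, 5830473C10Rik included, thus held both directions, Afp alone being lower in adult liver.

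Factors known to activate albumin-type promoters were mostly higher in adult liver, where Afp was near 0. Of 19 tested, 16 were called higher and none lower, against 31.7% and 35.4% of all genes, with a median log2 change of 1.499. The largest statistical support was for Rxra (2.00, SE 0.05), Nr5a2 (1.62, SE 0.04) and Hnf4a (1.82, SE 0.05, from 273 ± 17.3 to 887 ± 156 CPM, SD, n = 24 each). With library totals 15 were called higher and none lower, against 2399 higher and 7034 lower of all 13026 genes. Foxa3 and Onecut1, named after their values were seen, were among those not called, at 0.11 and 0.16, and were at -0.45 and -0.41 with library totals. Of the relatives of the repressors, Zhx3 (2.08, SE 0.06) and Zhx1 (0.58, SE 0.03, but 0.0074 and not called with library totals) rose and Zbtb45 was lower in adult liver (-1.63, SE 0.11).

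Other plasma carrier and secreted protein genes resembled Alb, Afm and Gc in direction. Over the 21 tested the median log2 change was 1.33. Of these, 18 were called higher in adult liver and 1 lower, against 31.7% and 35.4% of all genes. This count depends on the scaling: with library totals 12 were called higher and 1 lower, with a median of 0.76. Of all 13026 genes, 2399 were then called higher and 7034 lower. Without fetal female 14, with TMM, 17 of the 21 were called higher and 1 lower. Apoa2 (2.05, SE 0.04), the retinol carrier gene Rbp4 (1.94, SE 0.04) and the acute phase gene Orm1 (9.08, SE 0.13, from 1.45 to 746 CPM) came first in the list by adjusted p-value, not by size. Serpina6, the gene of the corticosteroid carrier, was lower (-0.64, SE 0.12). Trf and Ahsg, also named after their values were seen, were not called, at 0.30 and 0.13, and changed sign with library totals, to -0.27 and -0.44. Among the listed genes of albumin binding and handling, not all of them receptors, B2m (2.55, SE 0.04) and Fcgrt (1.73, SE 0.12) both rose. These encode the 2 chains of the neonatal Fc receptor that recycles albumin. The fetal spread of Fcgrt rests on female 14, which was at 352 CPM against 53.4 to 89.2 CPM in the other fetal livers. Sparc (-0.93, SE 0.05) and Lrp2 (-0.68, SE 0.21) were lower, Dab2 was not called (-0.38, and -0.95 and called with library totals), and the median of the 5 tested was -0.38.

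The oncofetal list moved with Afp and Gpc3. All 15 genes were tested and all 15 were called lower in adult liver, against 35.4% of all genes. Among adult livers alone only 2 of the 15 passed the filter on low counts. The others entered through their fetal reads, so that a call in this direction was nearly fixed for them. The median log2 change was -6.34, and all 15 stayed called with library totals. Under that scaling 7034 of all 13026 genes were called lower. Without fetal female 14, 14 of the 15 were called. The exception was Epcam, an epithelial adhesion gene named after its values were seen, at 169 CPM in female 14, 3.01 ± 2.03 CPM (SD, n = 23) in the other fetal livers and 2.81 ± 1.48 CPM (SD, n = 24) in adult livers. Its log2 change was -1.18 (SE 0.62, adjusted p = 0.0693) with that liver and 0.034 (SE 0.24, adjusted p = 0.896) without it. H19, an imprinted noncoding RNA and a known Zhx2 target, was at 3365, 5490 and 6409 CPM (lowest, median and highest) in fetal livers and had at most 3 reads in any adult liver. Igf2 was at 798 to 1582 CPM in fetal livers and had at most 2 adult reads. Mest changed by -5.32 (SE 0.07). These genes were put on the list as fetal or oncofetal ones, so their direction is not independent evidence of it.

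The cell surface relatives of Gpc3 held both directions. Of 7 glypican and syndecan genes tested, 5 rose and 2 were lower, against 31.7% and 35.4% of all genes. The median log2 change was 1.61. With library totals 4 rose and 2 were lower, as Sdc3 lost its call, against 2399 higher and 7034 lower of all 13026 genes. Sdc1 (3.02, SE 0.05), Sdc4 (2.19, SE 0.06) and Sdc2 (1.61, SE 0.04) rose, while Gpc6 (-2.08, SE 0.14) and Gpc1 (-0.66, SE 0.11) were lower. Of the 3 glypicans tested, only Gpc4 was higher (2.43, SE 0.13). Of the 13 glypican-3 partners in Hedgehog and IGF signalling in the files, 6 were not tested, Hedgehog ligands and effectors among them. Of the 7 tested, 5 were lower and 1 higher, against 35.4% and 31.7% of all genes, with a median of -1.76. Igf2r (-1.76, SE 0.04), Igf1r (-2.53, SE 0.07) and the Hedgehog transducer Smo (-1.05, SE 0.06) were lower, and Cd81 was higher (1.08, SE 0.03). Ptch1, the Hedgehog receptor, was not called (0.21, and -0.36 with library totals).

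**Figure D5:**
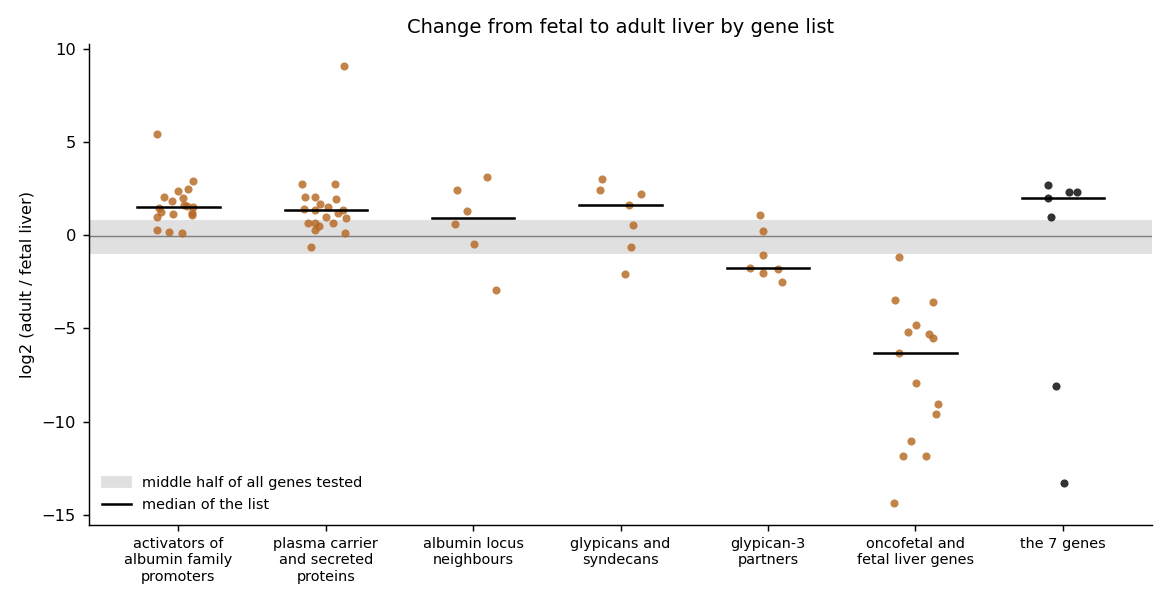
log2 change from fetal to adult liver of the genes of 6 lists and of the 7 genes themselves (1 point per tested gene, black bars at the list medians, grey band from the 25th to the 75th percentile of all 13026 genes tested). The activator and plasma protein lists lie mostly above the band, the 15 oncofetal genes lie below 0 (Epcam at 0.034 without fetal female 14), and the 7 genes divide into 5 above and 2 below.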

How the data were processed

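RNA from 64 mouse samples was sequenced. The authors aligned reads to mm10 with TopHat2 2.0.4 and Bowtie2 2.1.0, processed alignments with SAMtools 0.1.18, removed duplicates with Picard, and deposited raw counts per gene from HTSeq, with no normalization. Versions come from the submitters' processing notes, and the options of HTSeq were not given in the sources used here. Per the methods of the study, fetal livers were of 17.5 dpc, ES cell and liver libraries were TruSeq Stranded Total RNA, and 12 libraries shared a lane. Lanes were not given, so no comparison within lanes was made. Livers and embryos are separate individuals and ES samples separate lines.

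Counts were tested with edgeR 4.0.16 in R 4.3.3 (TMM, filterByExpr, robust quasi-likelihood F test, two-sided, Benjamini-Hochberg over all genes tested). Calls needed a log2 change beyond 0.5 in size and a p-value below 0.1 after adjustment. Standard errors are the absolute log2 change over the square root of F, and 95% intervals follow from the normal distribution. Comparisons between stages were averaged over the sexes. CPM used TMM factors over 64 libraries. Correlations used log2(CPM + 0.5), with labels permuted within sex 100000 times, in Python 3.11.15 with scipy 1.17.1. Alternatives were DESeq2 1.42.0, its size factors, library totals, no filter, the share of counted reads outside genes as a covariate, single sexes, adult livers of at least 2500000 reads, single ES lines left out, the title number as a block, and a pseudocount of 1. Fits were tested on simulated data. Depth was 1567583 to 10386931 reads on genes, and counting intervals cover counting error only. Summary lines of HTSeq were left out of library sizes, and 8.63% to 49.0% of counted reads lay outside genes.

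Every member was named in every comparison. Of each gene list, at most the 3 genes with the smallest adjusted p-value in each direction between liver stages were named, plus all listed neighbours of the cluster, and for each member the 3 genes most correlated with it. Some genes of the lists are not reported here by name. Genes of a list that were not called, and Sdc3, Gpc4, Epcam, Apoa4 and Fabp2, were named after their values were seen. The members and lists were chosen with earlier results of these data known. The relations to depth and to reads outside genes, the permutation test of Afp and Gpc3 in adult liver, the list counts with library totals and the fits and list counts without fetal female 14, were added after the data were seen.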

Additional observations from a re-analysis of the deposited data

Results flagged for a closer look

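Among the groups of 6 embryos of one sex, 2 single embryos stood far from the rest. Afp was at 3.38 CPM (21 reads) in female embryo 12 and at 0 in the other 5 females. Gpc3 was at 6.87 CPM (44 reads) in female embryo 8 and at 0 in the other 5 females. These are 2 of 7 combinations of gene and sex with any spread. In a group where all other embryos are at 0, any embryo with a read stands apart in this way, so the usual rate of 1 group in 20 by chance does not apply. In both cases a single library decides the value, and neither gene was seen in a male embryo.

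The male to female difference was called as changed between fetal and adult liver for 2 of the 7 genes in the edgeR interaction test, which called 13.7% of all genes, and a further one passed in its adjusted p alone. For Afm the adult minus fetal difference was -0.58 on the log2 scale (SE 0.08, adjusted p = 2.07e-07). For Afp it was 1.46 (SE 0.36, adjusted p = 0.00203), resting on 57 adult male and 16 adult female reads. Afp passed the filter of this test only through its fetal reads. For Alb it was -0.39 (SE 0.09, adjusted p = 4.78e-04), under the size threshold of a call.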

How the results depend on the processing

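Of 297 values of single genes under alternatives, 285 kept their direction and their side of the call, and all 7 genes kept their direction between the liver stages under every alternative run. In adult against fetal liver, Alb at 0.42 with library totals was the one call lost. With the share of reads outside genes as a covariate, male against female in fetal liver gave 9 calls in place of 600 and 0 of the 7 genes in place of 1 (Zbtb20 at 0.13, while Afm at 0.053, Gc at 0.032 and Zhx2 at -0.29 changed sign), ES cells 519 in place of 1205 and the interaction 1179 in place of 1787. Under it Zhx2 reached a call in the interaction (0.61, adjusted p = 0.015). Without the filter, fetal livers gave 1057 calls and adult livers 1518 in place of 984. DESeq2 called 80 genes in embryos in place of 24. With each ES line left out in turn the male to female comparison gave 0 to 3070 calls and 0 to 3 of the 7 genes. Gc at 0.094 and Zbtb20 at -0.0096 changed sign without male line 1 (Zbtb20 at 0.073 without male line 2), and Afm and Gc reached a call without male line 2 (-1.45 and -1.03). Alb and Gc in fetal livers gave r = 0.45 with library totals and 0.54 (adjusted p = 0.0617) without fetal female 14, chosen after seeing the data, while no call of the 7 genes changed without that liver. In the 15 adult livers of at least 2500000 reads, Zbtb20 and Afp gave r = -0.43, Alb and Afp r = 0.33, and Alb and Afm r = 0.78 (adjusted p = 0.0226) in place of 0.38. The causes were not tested.

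Fetal and adult libraries share only a title number: same-numbered pairs correlated at -0.14 to 0.08, 0 of 24 above 0.1. With the number as a replicate block, all 7 genes stayed called between the stages (8753 genes in all, in place of 8742), Afp at -13.09 and Alb at 0.99, and the interaction gave 1661 calls. The depth of adult livers leaves Afp and Gpc3 near 3 reads, so that their differences among adult livers are hardly measurable.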
